A study of Danio rerio with 14 samples.

Results

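The genes described here are a block of neighbouring rows of the zebrafish count table, in which several genes differed between transgenic and wild-type fish in an earlier look at the same libraries. The block runs in table order from si:rp71-36a1.5 (ENSDARG00000077252) to ENSDARG00000099364. It spans 87 rows, of which 61 were kept as members, out of 32520 genes in the whole table. A row was kept if it had at least 10 counts over the 14 libraries. This left out 20 rows, 7 of them with no count in any library, and the 6 elastase rows named cela1 or CELA1 were left out as well. At the edge of the count minimum, the lowest members held 10 counts (si:rp71-1i20.1) and 11 counts (si:ch211-209l18.2 and si:dkey-19a16.1). The highest row left out for its counts was si:ch211-157p5.4, with 7. The 2 end genes were selected on the genotype difference itself. The contrast of transgenic with wild-type libraries is therefore given below as a description. No p-value of a single gene is printed for it, and the counts of members past its threshold are given beside the share of all genes, with nothing read from them.

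The samples were intestines of zebrafish (Danio rerio), from which polyadenylated RNA was sequenced. The transgenic fish carried Tg(Xla.Eef1a1:Cau.Asip1)iim04, whose name, read by zebrafish nomenclature, stands for goldfish Asip1 driven by the promoter of the frog Eef1a1 gene. The 8 wild-type libraries were labelled Tubingen, and the genotype label of the 6 transgenic ones named the transgene alone, so transgene and genetic background cannot be told apart. Titles end in a letter, M or H, whose meaning the labels do not give. It defined 4 groups: transgenic M (replicates 9, 10 and 11), wild-type M (1 to 4), transgenic H (13, 14 and 16) and wild-type H (5 to 8). Age, sex and pooling of fish were not given in the sources used here. Nothing in the labels ties each replicate to a different fish, so p-values below reflect only how these samples spread, and that spread may be technical.

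Agouti signalling protein is a secreted antagonist of melanocortin receptors, best known for its part in pigment patterning. Genes that lie close together on a chromosome tend to be inherited together, and zebrafish chromosomes hold many tandem arrays of related genes. Few members of the block have a name that tells what they do. Of the 61 members, 21 had no symbol in the supplied table and 35 had a clone-type name such as si:dkey-19a16.2 or zgc:171500. Only 5 had a gene-type name: rnasel2, fgfr1bl, GPD1, SMARCD1 and asic1b. Genes without a symbol made up 34.4% of the members, against 7.14% of the 23502 genes of the table with at least 10 counts. Of the members, 27 had a single match in a RefSeq gene table of another assembly (GRCz12tu). There, 26 of the 27 lay on 1 chromosome, and 23 of 25 steps between consecutive ones kept the order of the count table. Members may include near-identical copies between which read counting can split reads, so the level of any 1 copy is uncertain.

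Total counts ranged from 9847910 to 14091791 per library, and levels are given as CPM, the usual count per library size, with library sizes scaled by TMM factors. The wild-type H libraries were not alike. The summed level of 12 enterocyte marker genes, none of them at 0 counts, was 201 CPM in wild-type H replicate 6 and 1780 CPM in replicate 7. In the other groups it was 13200 to 15200 CPM (wild-type M), 14300 to 17500 CPM (transgenic M) and 9970 to 19900 CPM (transgenic H). The summed level of 15 oocyte markers reached 15300 CPM in wild-type H replicate 6, against 0.507 to 2.31 CPM in the M libraries. That of 7 vitellogenin genes was 97700 to 251000 CPM in transgenic H. In wild-type H it was 61500 CPM in replicate 8, and 0.634, 19.5 and 2.66 CPM in replicates 5, 6 and 7. No gene of these lists is a member of the block. Wild-type H replicate 6 was the lowest of its group for 19 of the 34 members with enough counts to be tested. The same share over all tested genes is not given, so this count is not read as a trait of the block. The part of tissue makeup in the H values was not tested, and in bulk RNA fewer cells of a type and less RNA per cell cannot be told apart.

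The block held genes with reads in 1 genotype and almost none in the other, in both directions, lying next to genes that hardly differed. In 19 of the 61 members, all transgenic libraries lay on one side of all wild-type libraries in M and again in H, on the same side in both letters. Of these, 10 were higher and 9 lower in transgenic fish. No member lacked overlap in opposite directions in M and H. Another 7 members lacked overlap in M alone, 3 in H alone, and 32 overlapped in both letters. Shares of all genes are not given for these last counts, so nothing is read from them. Counting only the 34 members that passed the filter on low counts, 15 (44.1%) lacked overlap in the same direction in both letters, against 4.76% of the 18619 genes tested.

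Within M, 8 of the 34 lacked overlap with higher transgenic levels and 11 with lower ones. The shares among all tested genes were 9.83% and 9.32%. Within H, 9 were higher and 9 lower, against 7.64% and 6.03% of all tested genes. At an adjusted p under 0.05 (edgeR quasi-likelihood test), 4 members were called higher and 5 lower in M, beside 0.510% and 0.446% of all tested genes. In H, 3 were called higher and 5 lower, beside 0.714% and 0.435%. In fits without wild-type H replicates 6 and 7, the members called were 15 in M and 10 in H, and the share of all genes rose as well, to 3.86% in M and 1.99% in H. Because the block was chosen by this contrast, the counts of members in this and the preceding paragraph are no independent evidence about it. The median fitted log2 fold change over the 34 members was −0.35 in M and −0.37 in H, against −0.01 and −0.17 over all tested genes. The median absolute value was 1.42 in M and 1.22 in H, against 0.32 and 0.69. These medians come from the contrast by which the block was chosen, so they are no independent evidence either.

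**Figure D1:**
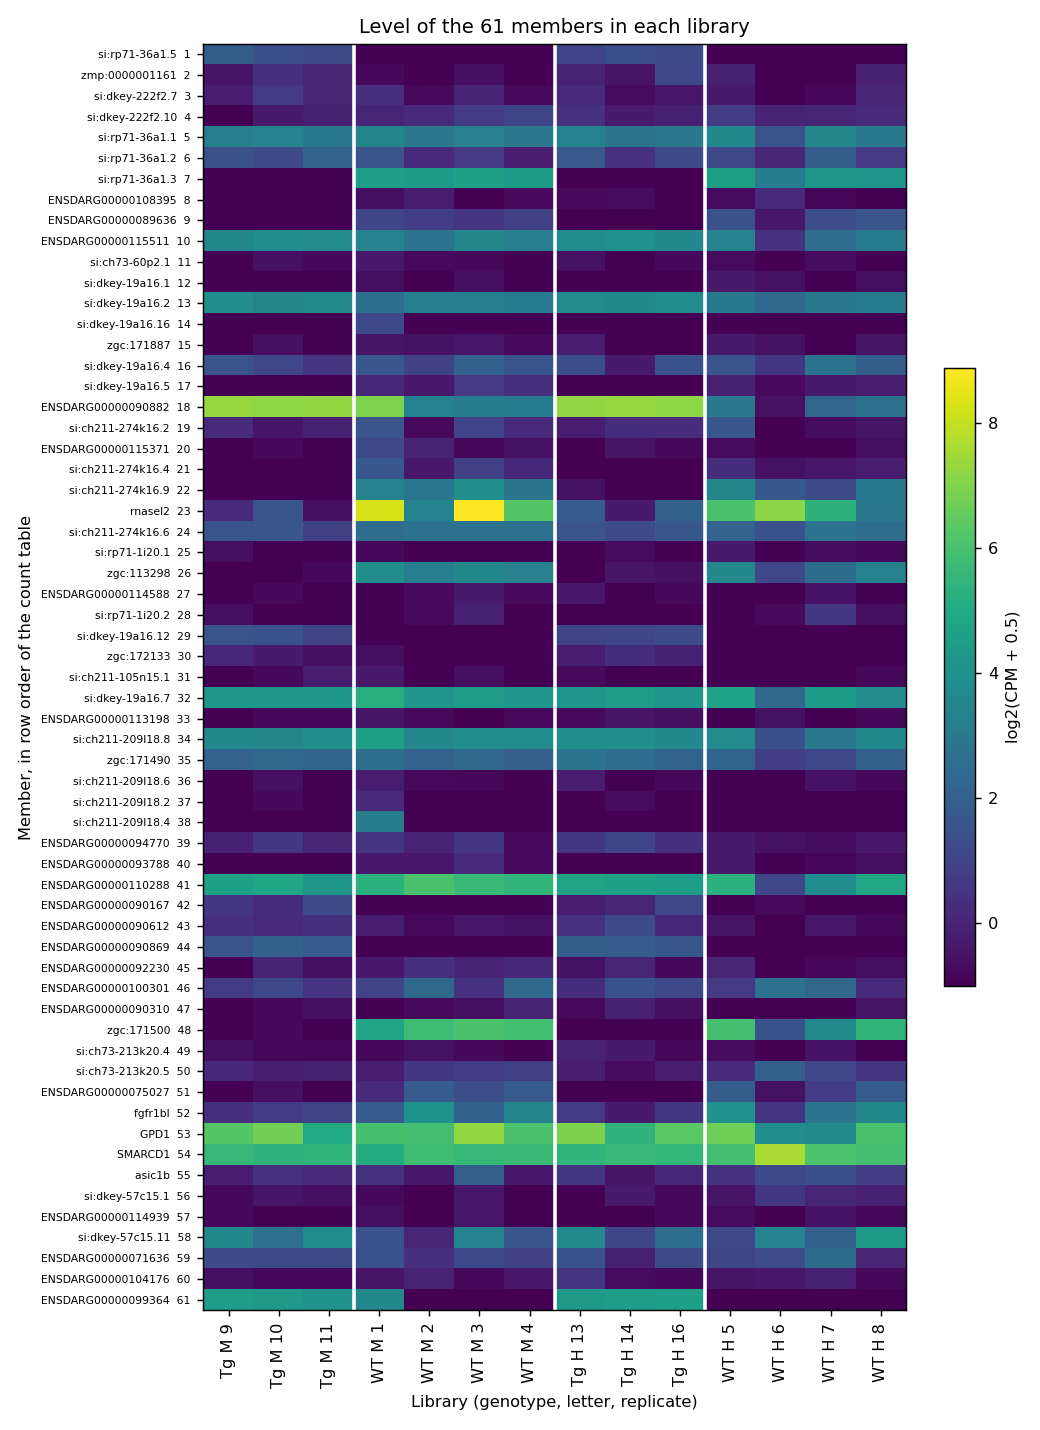
Level of each of the 61 members (rows, in table order, numbered 1 to 61) in each of the 14 libraries (columns; Tg, transgenic; WT, wild-type), as log2(CPM + 0.5); white lines part the 4 groups. Rows that are dark in one genotype and bright in the other lie beside rows of even colour, and rows 18 and 61 are bright in WT M 1 as well as in the transgenic libraries.

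Among the members higher in transgenic fish, 3 had no read in any of the 8 wild-type libraries. The first was si:rp71-36a1.5, the gene that opens the block. Its levels were 3.23, 2.17 and 1.95 CPM in transgenic M and 1.46, 2.19 and 1.95 CPM in transgenic H. All 6 transgenic libraries held 16 to 44 reads of it, and no wild-type library held any. The mean was 2.45 ± 0.688 CPM (SD, n = 3) in transgenic M and 1.87 ± 0.371 CPM (SD, n = 3) in transgenic H. By group rates, transgenic was at least 39.2-fold above wild type in M and at least 30.7-fold in H. These bounds take a floor of 3 counts over the wild-type group.

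The same all-or-none split was seen further along the block. ENSDARG00000090869 stood at 2.35, 3.57 and 2.96 CPM in transgenic M and at 3.29, 3.13 and 2.63 CPM in transgenic H. Its group rates were at least 46.7-fold above wild type in M and at least 49.6-fold in H, by the same floor. The third, si:dkey-19a16.12, was at 2.35, 2.33 and 1.52 CPM in transgenic M and 1.55, 1.56 and 1.95 CPM in transgenic H. The folds over wild type were at least 33.0 in M and at least 28.1 in H. These 3 genes occupied positions 1, 44 and 29 of the 61, so they were not adjacent.

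ENSDARG00000090167 came close to that pattern, with 1 read in wild-type H replicate 6 and none in the other 7 wild-type libraries. It reached 1.03, 0.699 and 1.86 CPM in transgenic M, and 0.365, 0.521 and 1.70 CPM in transgenic H. The fold was at least 18.6 in M. In H it was 44.5, with an exact 95% counting interval from 7.37 to 1816. Intervals and floors cover counting error alone.

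ENSDARG00000090882 was high in all transgenic libraries and, besides these, in 1 wild-type one. It measured 157.8, 147.3 and 155.6 CPM in transgenic M and 148.8, 157.1 and 145.1 CPM in transgenic H. Wild-type H libraries were far lower, at 7.29, 0.182, 4.18 and 5.85 CPM. In wild-type M, replicate 1 was at 125.5 CPM and the other replicates at 9.74, 8.41 and 7.75 CPM. The genotypes did not overlap in either letter, but wild-type M replicate 1 sat near the transgenic level. The ratio of group rates was therefore 3.60 in M and 34.6 in H.

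ENSDARG00000099364, which closes the block, had the same shape. It was at 22.2, 19.8 and 16.4 CPM in transgenic M and at 19.3, 22.5 and 23.5 CPM in transgenic H. No read fell on it in wild-type H or in wild-type M replicates 2, 3 and 4, while wild-type M replicate 1 held 161 reads, or 11.7 CPM. The H difference was at least 359.7-fold, and the M ratio was 5.78. Leaving out wild-type M replicate 1 would put every remaining wild-type library at 0.

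Smaller differences in the same direction were seen for a pair of members only 3 positions apart, both with reads in every library. ENSDARG00000115511 stood at 11.2, 13.5 and 13.2 CPM in transgenic M against 9.98, 6.22, 10.8 and 8.78 CPM in wild-type M. In H it stood at 13.6, 15.01 and 11.5 CPM against 9.82, 0.817, 5.26 and 8.10 CPM. Its ratio of group rates was 1.39 in M and 2.24 in H, and in M the lowest transgenic library lay just above the highest wild-type one. The other, si:dkey-19a16.2, averaged 12.2 ± 1.44 CPM (SD, n = 3) in transgenic M and 7.88 ± 1.65 CPM (SD, n = 4) in wild-type M. In H the means were 12.7 ± 1.05 CPM (SD, n = 3) and 6.71 ± 1.34 CPM (SD, n = 4). Its ratios were 1.58 and 1.88.

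The remaining 2 of the 10 higher members were too low to be tested. One of them, zgc:172133, had 14 reads in transgenic M and 16 in transgenic H, against 2 reads in all wild-type libraries together, both in wild-type M replicate 1. ENSDARG00000090612 had 28 and 35 reads in transgenic M and H, against 11 and 7 in wild-type M and H.

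**Figure D2:**
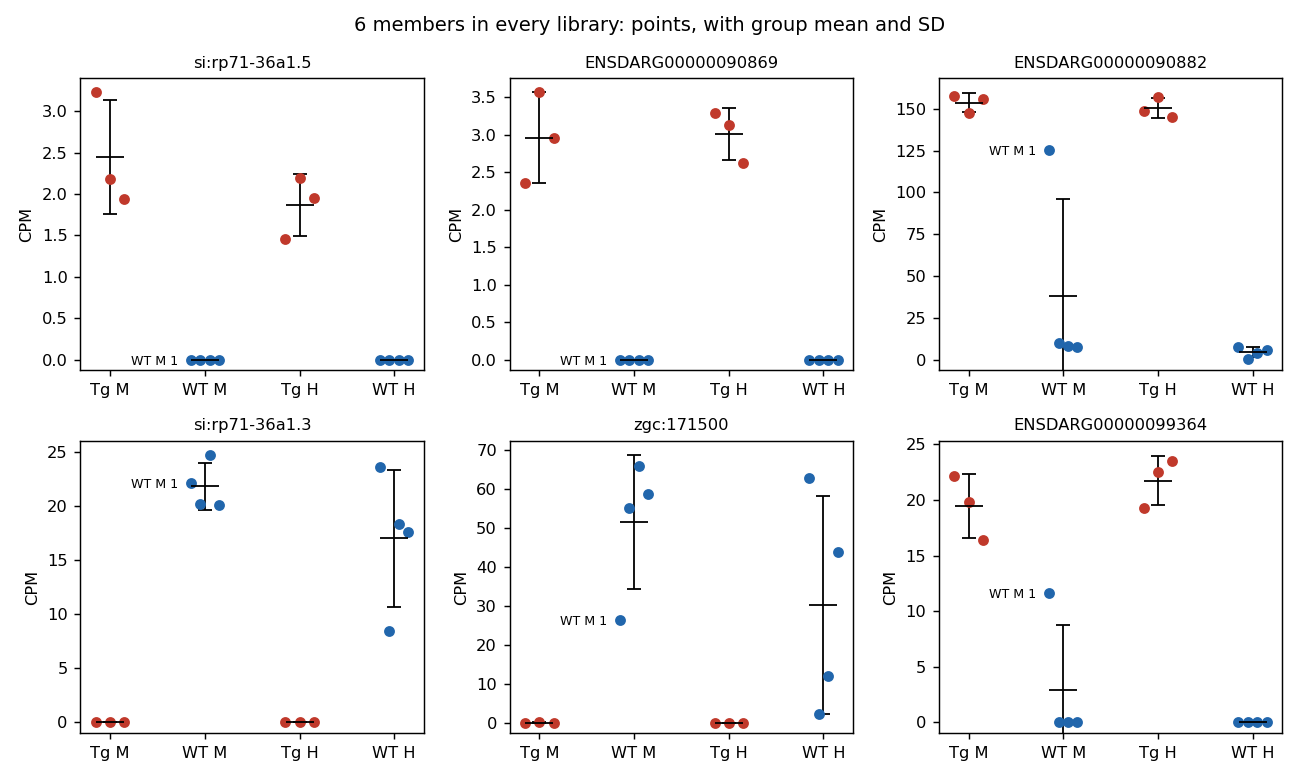
CPM of 6 members in every library (points; red, transgenic, Tg; blue, wild-type, WT), with the group mean and SD (bars; lower ends cut where they pass below 0), n = 3 for Tg and n = 4 for WT; each panel has its own linear scale. si:rp71-36a1.5 and ENSDARG00000090869 are at 0 in all wild-type libraries, si:rp71-36a1.3 is at 0 in all transgenic ones, and the labelled WT M 1 point is near the transgenic level for ENSDARG00000090882 and between both genotypes for ENSDARG00000099364.

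Among the 9 members lower in transgenic fish, si:rp71-36a1.3 was the clearest. It had no read in any transgenic library. Wild-type levels were 22.2, 20.2, 24.8 and 20.2 CPM in M, and 23.7, 8.45, 18.39 and 17.6 CPM in H. The wild-type M libraries were tightly grouped and replicate 6 was the low one in H. The difference was at least 280.4-fold in M and at least 183.1-fold in H. It lies at position 7, close to si:rp71-36a1.5 with the opposite direction. Between them lie si:rp71-36a1.1 and si:rp71-36a1.2, which bear the same clone name and overlapped between genotypes in both letters. The level of si:rp71-36a1.1 was 8.78 ± 1.21 CPM (SD, n = 3) in transgenic M and 8.49 ± 1.64 CPM (SD, n = 4) in wild-type M.

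zgc:171500 had a single read in the 6 transgenic libraries, in transgenic M replicate 10. In wild-type M it stood at 26.5, 55.1, 66.0 and 58.6 CPM, and in wild-type H at 62.7, 2.27, 12.1 and 43.9 CPM. Every wild-type library was above every transgenic one, though the wild-type H libraries spread widely and replicates 6 and 7 were the low ones there. The M ratio was 1928, with an exact 95% counting interval from 345.8 to 76200, and the H difference was at least 303.3-fold.

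A pair of members near the middle of the block had the same form. For zgc:113298, wild-type levels were 14.3, 9.09, 10.96 and 9.43 CPM in M and 11.5, 1.73, 5.07 and 9.75 CPM in H, with 1 read in transgenic M and 4 in transgenic H. Its ratio was 427.8 in M (exact 95% counting interval 76.5 to 16930) and 55.1 in H. For si:ch211-274k16.9, wild-type levels were 9.69, 6.87, 14.8 and 6.54 CPM in M and 10.9, 2.81, 1.90 and 7.50 CPM in H. It had no read in transgenic M and 2 in transgenic H, which gave at least 123.0-fold in M and a ratio of 86.1 in H (exact 95% counting interval 23.6 to 714.7).

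At lower levels, ENSDARG00000089636 had no transgenic read and averaged 1.28 ± 0.281 CPM (SD, n = 4) in wild-type M and 1.77 ± 1.02 CPM (SD, n = 4) in wild-type H. The folds were at least 16.4 and at least 19.6. ENSDARG00000075027 had 2 reads in transgenic M, both in replicate 10, and none in transgenic H. It averaged 2.21 ± 1.15 CPM (SD, n = 4) in wild-type M and 1.95 ± 1.51 CPM (SD, n = 4) in wild-type H, and its M ratio was 40.4 (exact 95% counting interval 10.9 to 337.8). The low-count members si:dkey-19a16.5 and si:ch211-274k16.4 had no transgenic read, and 47 and 81 wild-type reads in all. In total, 8 of the 61 members had no read in the transgenic libraries and 3 had none in the wild-type libraries. Not all of the 8 split by genotype. The genotypes overlapped in both letters for si:dkey-19a16.1 (11 reads in all), si:dkey-19a16.16 and si:ch211-209l18.4, and in H for ENSDARG00000093788. The same shares over all genes are not given, so nothing is read from these counts.

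The last of the 9 was rnasel2, a member of the RNase A family of secreted ribonucleases in zebrafish. It measured 0.662, 2.49 and 0.169 CPM in transgenic M against 312.5, 9.74, 469.7 and 75.5 CPM in wild-type M. In H it measured 3.20, 0.313 and 3.73 CPM against 65.0, 142.6, 41.0 and 7.27 CPM. No transgenic library reached the lowest wild-type one in the same letter. The wild-type libraries themselves ranged widely, with a mean of 216.9 ± 212.9 CPM (SD, n = 4) in M. The ratio of group rates was 205.2 in M and 23.3 in H. Liver markers (10 genes, none at 0 counts in all libraries) also varied among the libraries. Their summed level was 13700, 340, 30100 and 3150 CPM in wild-type M and 3230, 14600, 6070 and 903 CPM in wild-type H. It was 4190, 9600 and 1830 CPM in transgenic M, and 29300, 2440 and 27100 CPM in transgenic H. Within wild-type M and within transgenic M, rnasel2 and the liver sum ranked the libraries alike. In transgenic H the order of the 2 highest libraries differed, and in wild-type H that of replicates 5 and 7. With so few libraries in a group, like ranks can arise by chance. The transgenic H libraries with liver sums of 29300 and 27100 CPM had 3.20 and 3.73 CPM of rnasel2. The part of liver RNA in the rnasel2 values was not tested. Single libraries moved the genotype ratio of rnasel2: the fitted log2 fold change in M, −7.60 with all libraries, was −8.97 without transgenic replicate 10 and −6.92 without wild-type replicate 3. In H it was −4.71 with all libraries, −4.10 without transgenic replicate 14 and −3.93 without wild-type replicate 6. Per length, rnasel2 had the highest level of the members in wild-type fish, at a mean deposited FPKM (read count scaled to gene length and library total) of 218 in M and 72.3 in H. In transgenic fish the means were 1.18 and 2.13 FPKM.

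Position along the block and direction were mixed. In row order, the 19 members without overlap in both letters formed 9 runs of like direction, and the direction switched 8 times. The longest run held 5 higher members, between positions 29 and 44, and the longest run of lower members held 4, between positions 21 and 26. The 2 end genes were both higher, as the choice of the block fixed for them.

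**Figure D3:**
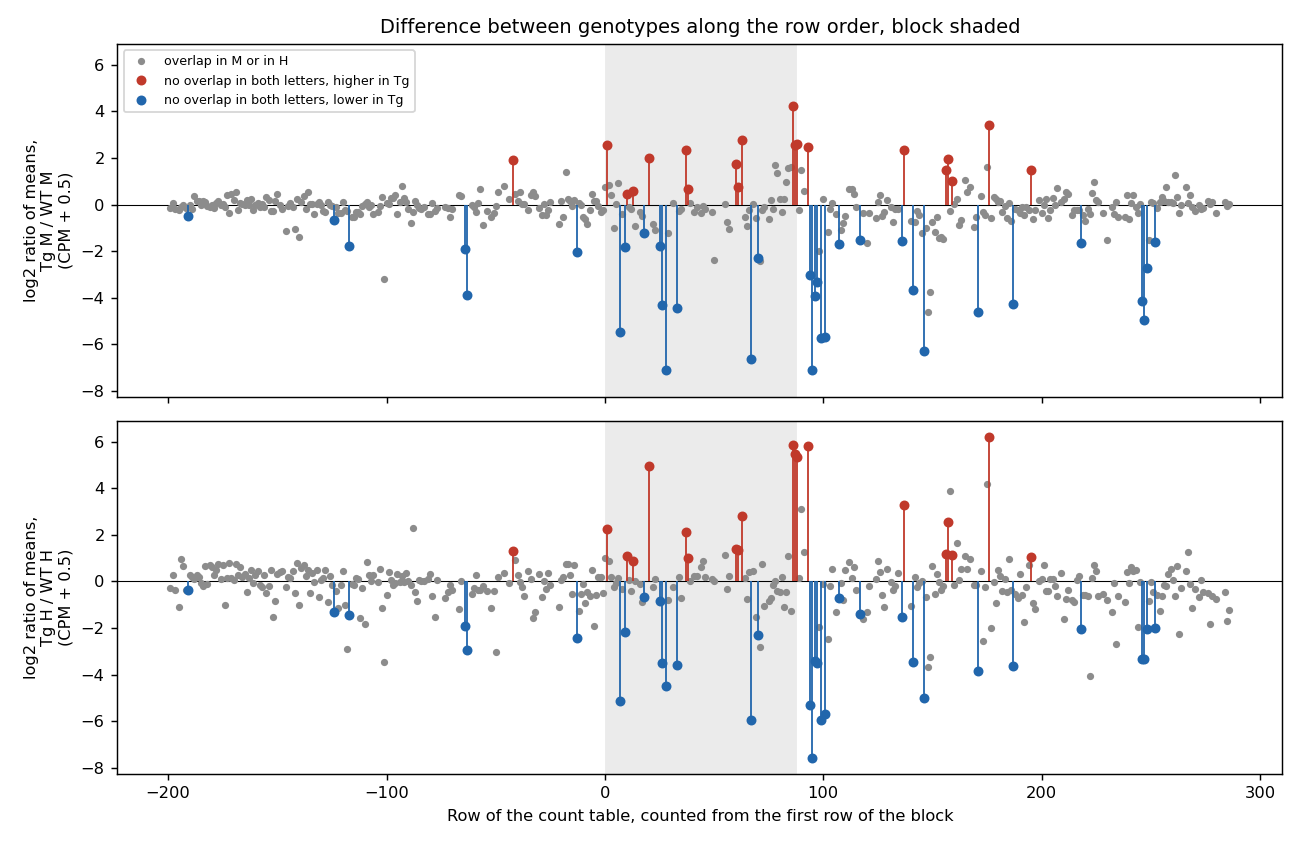
Log2 ratio of group mean levels, transgenic (Tg) over wild-type (WT), on CPM + 0.5, for rows of the count table with at least 10 counts, from 200 rows before to 200 rows after the block (shaded, elastase rows included), in M (top) and H (bottom). Red and blue stems mark genes without overlap in the same direction in both letters; they are dense in the block and in the 100 rows after it, and point up and down in both panels.

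The density of such genes did not end with the last row of the block. Among rows with at least 10 counts, 12 of 41 (29.3%) in the next 50 rows lacked overlap in the same direction in both letters, 3 higher and 9 lower. Unlike the block, the windows outside it keep elastase rows, and cela1.7 is among these 9. In the 50 rows after those it was 8 of 46 (17.4%), and then 2 of 42 (4.76%) and 4 of 42 (9.52%). Before the block, the 4 windows of 50 rows held 2 of 41 (4.88%), 2 of 40 (5.0%), 2 of 48 (4.17%) and 1 of 49 (2.04%), nearest first. The shares in the windows before the block were thus lower than those in the first 2 windows after it. How sharp either end is cannot be read from these shares, and no test was made of the windows, since the ends were chosen with these differences known.

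**Figure D4:**
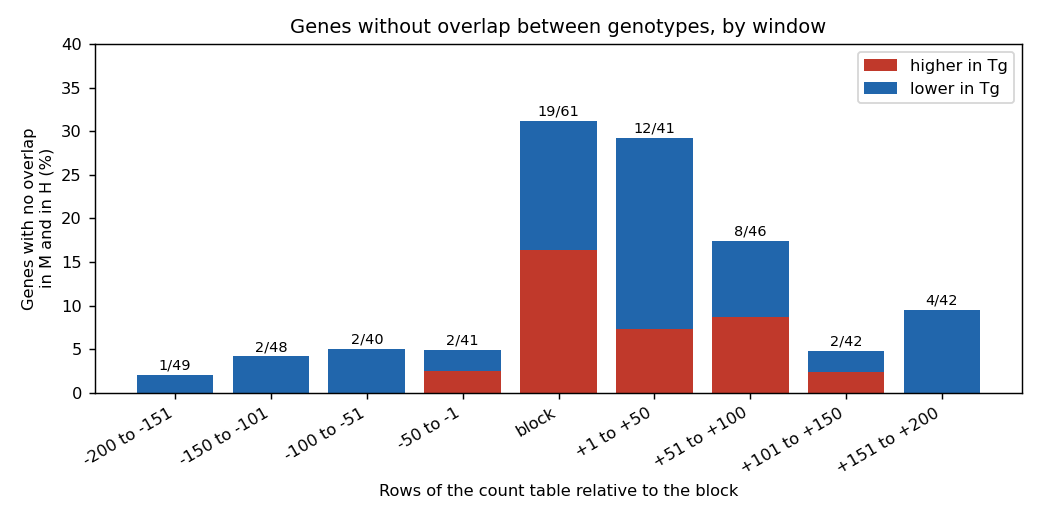
Percentage of genes with at least 10 counts that lacked overlap between genotypes in the same direction in M and in H, for the block (members only) and for windows of 50 rows on either side; red, higher in transgenic (Tg), blue, lower; the numbers above the bars are such genes over all genes of the window. The block (19 of 61) and the next 50 rows (12 of 41) stand above the 4 windows before the block. Elastase rows are left out of the block only, and the next 50 rows hold cela1.7.

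At each end, genes without overlap in M or in H and genes that overlapped in both letters lay both inside and outside the block. Before the block, the genotypes overlapped in both letters for cox14 and CERS5. The level of cox14 was 5.59 to 10.99 CPM in transgenic M against 7.91 to 13.5 CPM in wild-type M. In H it was 7.12 to 9.07 against 6.53 to 7.57 CPM. That of CERS5 was 37.0 to 43.7 against 39.7 to 55.8 CPM in M, and 31.2 to 49.0 against 40.4 to 73.6 CPM in H. The row directly before si:rp71-36a1.5, si:dkey-222f2.6, had 1 to 11 reads in each transgenic library and 1 read in the wild-type libraries together. Just inside, ENSDARG00000076358 was at 0.221, 0.777 and 0.507 CPM in transgenic M and at 0.0723, 0, 0.165 and 0 CPM in wild-type M, and overlapped in H. The third member, si:dkey-222f2.7, overlapped in both letters.

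At the other end, ENSDARG00000071636 and ENSDARG00000104176, the last members before ENSDARG00000099364, overlapped in both letters. Rows of elastase genes, which are not members, lie between them and ENSDARG00000099364, and the row directly before it is cela1.5. The row after it, ENSDARG00000071629, repeated its pattern, with 183 to 228 reads in each transgenic library, 127 in wild-type M replicate 1 and none in the other wild-type libraries. ENSDARG00000104640, the third row outside, had 33 to 43 reads in each transgenic library, 36 in wild-type M replicate 1 and none in the other wild-type libraries. Its genotypes overlapped in M, where wild-type replicate 1 was at 2.60 CPM, within the transgenic range of 2.43 to 3.03 CPM. Between ENSDARG00000071629 and ENSDARG00000104640, si:dkey-57c15.9 had at most 6 reads in any library.

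Wild-type M replicate 1 differed from the other wild-type libraries at several members. Its level of ENSDARG00000090882 was 81.7% of the transgenic M mean, and that of ENSDARG00000099364 was 59.8%. In 5 members it was the only wild-type library with reads: si:dkey-19a16.16 (24 reads), zgc:172133 (2), si:ch211-209l18.2 (9), si:ch211-209l18.4 (115) and ENSDARG00000099364 (161). Of these, si:dkey-19a16.16 and si:ch211-209l18.4 had no read in the transgenic libraries either, so that wild-type M replicate 1 alone had reads of them. Among the 18619 tested genes, 3 had at least 10 reads in wild-type M replicate 1 and none in the other wild-type libraries. Of the 5 members, only ENSDARG00000099364 was tested, so that number is no matching share for them.

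The same library also stood apart where both genotypes had reads. For si:dkey-19a16.7 it was at 35.9 CPM against 17.4 to 21.7 CPM in the other wild-type M libraries and 18.2 to 18.8 CPM in transgenic M. For si:ch211-209l18.8 it was at 24.1 CPM against 11.4 to 14.1 CPM and 10.6 to 14.5 CPM. It was the low one of wild-type M for zgc:171500 and for ENSDARG00000075027, at 0.651 CPM against 2.06 to 3.08 CPM. It was not near the transgenic libraries throughout: it had no read of si:rp71-36a1.5, si:dkey-19a16.12, ENSDARG00000090167 or ENSDARG00000090869, and a level of si:rp71-36a1.3 like that of the other wild-type libraries. Without it, the fitted log2 fold change of ENSDARG00000090882 in M was 4.14 in place of 2.02.

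The other named genes of the block lie together near its end, after rnasel2. GPD1 (ENSDARG00000043180), the cytosolic glycerol-3-phosphate dehydrogenase, was among the members with the highest level per length, at mean FPKM values of 51.9 in transgenic M, 58.2 in wild-type M, 47.1 in transgenic H and 33.0 in wild-type H. Its genotypes overlapped in both letters: 77.6, 109.9 and 31.8 CPM in transgenic M against 64.5, 60.8, 154.1 and 65.6 CPM in wild-type M. In H it stood at 121.9, 42.0 and 81.9 CPM against 102.0, 13.8, 12.8 and 65.2 CPM, and wild-type H replicates 6 and 7, the libraries with low enterocyte markers, were the low ones.

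SMARCD1, a subunit of SWI/SNF chromatin remodelling complexes, had nearly even levels in M, at 44.3 ± 2.32 CPM (SD, n = 3) in transgenic and 47.9 ± 9.70 CPM (SD, n = 4) in wild-type fish. In H, the transgenic libraries were at 45.1, 48.6 and 46.0 CPM and the wild-type ones at 60.5, 197.1, 66.9 and 60.9 CPM. The H libraries did not overlap, and the highest value was that of wild-type H replicate 6, the library with the high oocyte markers. fgfr1bl, named for its likeness to a receptor of fibroblast growth factors, was at 0.809, 1.17 and 1.52 CPM in transgenic M against 3.11, 16.1, 3.71 and 10.4 CPM in wild-type M. In H it was at 1.096, 0.313 and 1.02 CPM against 15.6, 0.908, 6.21 and 11.5 CPM, and replicate 6 alone made the genotypes overlap. asic1b, a proton-gated sodium channel gene, was low, at 0.209 to 3.46 CPM, and overlapped in both letters.

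Whether the genotype difference itself changed between M and H was tested. The test used the same M and H values in which the block was chosen, so it is not independent of that choice. No member passed an adjusted p of 0.05 for the difference of the genotype effect between H and M (edgeR quasi-likelihood test, interaction term), and no gene of the 18619 did (0.00%). At an unadjusted p under 0.05 there were 2 members, and DESeq2 called none of the members and 24 genes in all. The lowest unadjusted p was that of ENSDARG00000099364 (0.0291 by edgeR, over all 14 libraries). Its log2 effect was larger in H by 8.31 (SE 3.26, edgeR adjusted p = 0.667), a value that rests on wild-type H being at 0 and wild-type M replicate 1 not. With no wild-type H read, the size of the H effect is not measured: the fitted log2 value was 11.03, and the log2 bound against 3 counts was 8.49. The other member under 0.05 was ENSDARG00000094770, with a log2 difference of 2.18 (SE 0.93, edgeR adjusted p = 0.667). It was at 0.441, 1.01 and 0.507 CPM in transgenic M against 0.940, 0.464, 0.989 and 0.0934 CPM in wild-type M. In H it was at 1.004, 1.56 and 0.763 CPM against 0.317, 0.182, 0.127 and 0.300 CPM, so that the genotypes overlapped in M and not in H.

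Differences larger than that of ENSDARG00000094770, with wider errors, were fitted for other members. Among them were si:ch211-274k16.9 at 3.50 (SE 1.86) and ENSDARG00000090882 at 3.08 (SE 1.46), both with an edgeR adjusted p of 0.667. With no read of si:ch211-274k16.9 in transgenic M, the size of its M effect is not measured. The fitted log2 value there was −9.83 and the bound against 3 counts −6.94, beside a fitted −6.32 in H on 2 transgenic reads. The value for ENSDARG00000090882 rests in part on wild-type M replicate 1. That library was at 125.5 CPM, and the other wild-type M libraries at 7.75 to 9.74 CPM. A p that misses the threshold does not show that the effects were alike in both letters. The fitted genotype effect had the same sign in M and H for 26 of the 34 tested members. The same share over all genes is not given, so nothing is read from this count. M and H libraries are separate samples in both genotypes, but the members were chosen with both in view.

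**Figure D5:**
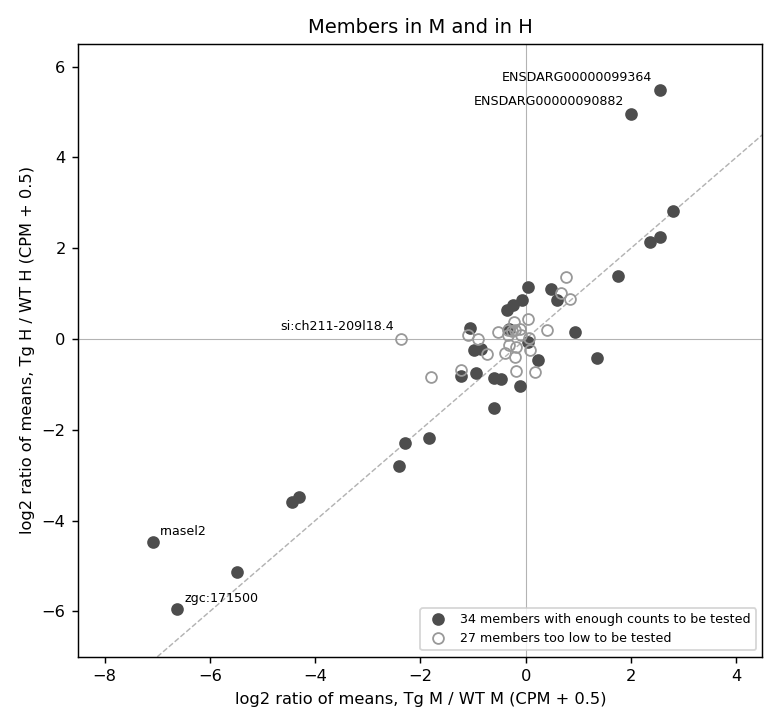
Log2 ratio of group means, transgenic (Tg) over wild-type (WT), on CPM + 0.5, in M (horizontal) and in H (vertical) for the 61 members; filled points, the 34 with enough counts to be tested, open points, the 27 others; the dashed line marks equal ratios. ENSDARG00000099364 and ENSDARG00000090882 lie above the line and si:ch211-209l18.4 to the left of the others near 0; all 3 have far more reads in WT M 1 than in the other wild-type libraries.

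H and M were not compared by a test within the transgenic fish alone. ENSDARG00000090882 averaged 153.6 ± 5.54 CPM (SD, n = 3) in transgenic M and 150.3 ± 6.16 CPM (SD, n = 3) in transgenic H. The means of ENSDARG00000099364 were 19.5 ± 2.91 and 21.7 ± 2.205 CPM (SD, n = 3 each). Those of si:dkey-57c15.11 were 10.4 ± 4.46 and 6.47 ± 5.45 CPM (SD, n = 3 each), with overlapping libraries. Averaged over genotypes, no member differed between H and M at an adjusted p under 0.05 (edgeR quasi-likelihood test), as for all tested genes (0.00%). At an unadjusted p under 0.05 there was 1 member, ENSDARG00000099364, with a log2 difference of −3.99 (SE 1.63, edgeR adjusted p = 0.606), which again rests on the wild-type libraries. DESeq2 called no member and 344 genes in all (1.85%). The median log2 difference of the 34 members was −0.14, against 0.03 over all tested genes.

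Other members lacked overlap in a single letter, and nothing is read from their number. In M alone, 6 were lower in transgenic fish, among them ENSDARG00000110288 and si:ch211-274k16.6 besides fgfr1bl. ENSDARG00000110288 was at 24.9, 27.5 and 18.1 CPM in transgenic M against 39.4, 64.8, 50.9 and 43.0 CPM in wild-type M. In H, 26.9, 24.9 and 22.8 CPM stood against 39.0, 1.63, 13.6 and 30.1 CPM, with the wild-type libraries on both sides of the transgenic ones. For si:ch211-274k16.6 the M means were 2.17 ± 0.633 CPM (SD, n = 3) and 5.78 ± 0.431 CPM (SD, n = 4). In H, the genotypes of si:ch211-274k16.6 overlapped through wild-type replicate 6, at 2.27 CPM against 1.88 to 2.71 CPM in transgenic H. Besides SMARCD1 and ENSDARG00000094770, the member without overlap in H alone was si:ch73-213k20.5, lower in transgenic fish by a ratio of 6.16 on 9 and 85 reads.

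The 27 members too low to be tested had 10 to 115 counts over all libraries (median 23), and 22 of them were under 50. The upper end, 115, was si:ch211-209l18.4, all of whose reads came from wild-type M replicate 1. The median length of the 61 members was 1429 bases and their median FPKM 0.275, against 2244 bases and 1.96 FPKM for all genes with at least 10 counts. For the 34 tested members the medians were 1778 bases and 1.41 FPKM, against 2429 bases and 3.51 FPKM for all tested genes. The 6 elastase rows inside the block, which encode digestive proteases of the exocrine pancreas, were not members. The genotypes overlapped in both letters in 5 of them. The other, cela1.5, was at 68.7 to 82.1 CPM in transgenic M against 0 to 14.1 CPM in wild-type M, and at 5.21 to 71.5 CPM against 0 to 0.675 CPM in H. Summed exocrine pancreas markers ranged from 1140 to 60100 CPM over the libraries.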

How the data were processed

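The submitters' processing notes name the tools STAR 2.7.3a, FastQC, featureCounts 1.6.3 and edgeR, and list GRCm38.p6, mm10 and GRCz11 as builds without a role. For the strand setting, the sources used here give nothing. Libraries were made with a stranded poly-A kit, per the labels' protocols. Raw counts of reads for each gene, as whole numbers, were deposited by the authors. The FPKM values deposited by the authors beside them are those counts divided by gene length and column total, and were used for length and for levels per length. The table's gene order stood for neighbourhood. Symbols came from a supplied reference table (29201 identifiers).

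Counts were fitted with edgeR 4.0.16 in R 4.3.3: filterByExpr (18619 genes kept), TMM factors, 1 mean per group over all 14 libraries, quasi-likelihood tests and Benjamini-Hochberg adjustment over all tested genes. The procedure was checked on simulated counts, drawn with 1 spread common to all genes. Of 100 genes changed by a log2 of 1 in either direction, it called 0 in M and 0 in H. Of 100 changed by a log2 of 3, it called 64 in M and 67 in H. Of 18028 unchanged genes, it called 3 in each letter. Changes of such sizes can therefore be missed by these tests. The changed genes were drawn only from those above a minimum mean level, so the numbers called do not carry over to members at lower levels. Alternatives were DESeq2 1.42.0, other scaling, no filter, each letter alone and libraries left out. An SE is the size of the fitted log2 difference divided by the square root of its quasi-likelihood F statistic. Folds are ratios of group rates. Where a group had no count, the fold is a bound against 3 counts over that group, and where it had 1 to 3 counts, an exact 95% interval is given. A gene lacked overlap where all libraries of one genotype lay above all of the other.

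The members and lists were chosen with earlier results of these data known. Genes named were the tested members without overlap in both letters with a mean of at least 1 CPM over all libraries of a genotype, up to 10 each way. The 3 first and last members and the 3 rows outside each end were named as well. Others are named where a sentence singles them out, after their values were seen. No sequences are printed.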

Additional observations from a re-analysis of the deposited data

Results flagged for a closer look

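Values were compared within the 30 wild-type groups of 4 libraries in which the 19 genes of the naming rule had reads to compare. A library was noted where its gap to the nearest other one, divided by the range of the group on log2(CPM + 0.5), was above Dixon's critical value for groups of that size. Chance gives about 1 such library in 20 groups, and 5 were found, but that rate does not hold where the other libraries are all at 0, as for 2 of the 5, nor for several genes of the same library. In wild-type M replicate 1, ENSDARG00000099364 was at 11.6 CPM (161 reads) and at 0 in the other 3 libraries. In the same library, ENSDARG00000090882 was at 125 CPM, against 7.75 to 9.74 CPM. The other 3 were in wild-type H replicate 6, the library with the lowest enterocyte and highest oocyte markers. There, ENSDARG00000089636 was at 0.272 CPM, against 2.03 to 2.55 CPM. si:dkey-19a16.2 was at 4.72 CPM, against 7.17 to 7.57 CPM. ENSDARG00000090167 was at 0.0908 CPM, a single read, against 0. The part of tissue makeup in these values was not tested.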

How the results depend on the processing

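The number of members called between genotypes depended on the fit. The share of all tested genes called moved in the same direction. Within M, 9 members were called (0.956% of all genes), and 15 without wild-type H replicates 6 and 7 (3.86%). Within H it was 8 (1.15%), but 15 with DESeq2 (11.5%) and 1 with the H libraries alone (0.0628%), which was none of the 8. Leaving out each library in turn gave 5 to 13 members in M (5 without transgenic M replicate 9, 0.326%) and 4 to 12 in H (4 without transgenic H replicate 16, 0.398%). Over the same fits, the share of all genes called reached 2.65% in M (without wild-type H replicate 6) and 5.58% in H (without wild-type H replicate 5). Leaving out each library left 0 to 0 for the genotype effect in H against M and for H against M, and, of the 34 tested members, 19 to 23 without overlap in M and 18 to 21 in H, counts that leaving out a library cannot lower. The other alternatives kept these counts within 1.5 times. Shares of all genes are not given for the ranges without overlap, so nothing is read from them. Log2 fold changes of single genes of the naming rule kept their sign, except that of ENSDARG00000071636 in H, which was −0.58 and became 0.23 without wild-type H replicate 7 and 0.63 without replicates 6 and 7. Over these genes, 285 values in M and 286 in H stayed within their spread while 18 and 17 did not. The cause was not tested. Members with under 50 counts cannot show a difference smaller than their counting error. No paired analysis was possible because the groups compared share no replicate numbers.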
